A study of Mus musculus with 4 samples.

Results

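The interferon regulatory factor (Irf) genes were followed in mouse eosinophils from the pleural cavity and from the bone marrow. Every gene of the deposited table whose symbol starts with Irf and a digit was taken, which gave 8 of 5807 genes. Of these, 7 encode interferon regulatory factors (Irf1, Irf2, Irf3, Irf5, Irf7, Irf8 and Irf9), and Irf2bp2 encodes a corepressor that binds IRF2 and is kept apart from the family below. Irf4 was not in the table. The table is the authors' list of differentially expressed genes. The study's methods say that such genes were taken by thresholds on fold change and p-value. The mean reads used here do not reproduce that fold threshold for every gene, as described with the scalings below. Each gene had still been picked by the authors for a difference between the tissues, and absence gives a gene no direction.

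Interferon regulatory factors are transcription factors that share a DNA-binding domain at the amino end and read a repeated GAAA motif, the interferon-stimulated response element (ISRE). IRF3 and IRF7 lie at rest in the cytoplasm, are phosphorylated by the kinases TBK1 and IKKε after nucleic acids are sensed, and then switch on type I interferon genes. IRF9 has a different task, since below the interferon receptor it becomes, with STAT2, part of ISGF3, the complex that turns on interferon-stimulated genes. IRF1 activates and IRF2 mostly dampens such genes, IRF5 acts below Toll-like receptors, and IRF8 directs the growth of monocytes and dendritic cells from myeloid progenitors.

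All mice were wild type and had received an intrapleural injection of 150000 LLC cells, a Lewis lung carcinoma line that produces malignant pleural effusion (MPE), and cells were taken on day 2. Mice of the study were 6 to 8 weeks old. Each tissue gave 2 libraries, sequenced as paired reads of 100 bp, from about 40000 eosinophils per extraction. Bone marrow cells were enriched with F4/80 and sorted on CD45, SiglecF and side scatter, whereas pleural cavity cells were enriched with CD45 and sorted with further gates that required CD11b and F4/80 and removed CD11c+ and Gr1 high cells, so gate and tissue cannot be told apart. The sample titles and the study's methods give LLC-bearing mice for both tissues, although its text also calls the marrow cells naïve, and no uninjected sample was analysed here.

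What the table gives per gene is the authors' mean of estimated reads over the libraries of a tissue. Only these means were used, so no spread between replicates, SD or p-value stands behind any difference below, and "higher" or "lower" describes 2 means alone. Mean reads summed to 15947438 in the pleural cells and 11762543 in the marrow cells over the listed genes. Ratios were taken after scaling each tissue to that sum, which removes 0.44 from the log2 ratio of the means as deposited. In such bulk samples fewer cells of a type and less RNA per cell cannot be told apart. The eosinophil label was checked against 10 markers, of which 9 were listed. Siglecf and Ccr3, which encode surface receptors of eosinophils, had 21371 and 67556.5 mean reads in the pleural cells and 7105.5 and 17177.5 in the marrow cells, while the granule protein genes Prg2 (1482 and 555403.5) and Epx (341.5 and 139061.5) were far lower in the pleural cells. In all, 7 of the 9 were lower, and their summed reads were 0.766% of listed reads in the pleural cells and 9.55% in the marrow cells.

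Irf promoters differ in the motifs they carry. Windows of 250 bases before to 50 bases after annotated starts were read from RefSeq on GRCm38.p6, where all 7 family genes had at least 1 window, 10 in all. The ISRE was searched as GAAANNGAAA on both strands, and the gamma-activated site (GAS), an element that answers to interferon gamma, as TTCNNNGAA, which reads the same on both strands. Of the 7 genes, 1 held an ISRE (Irf2) and 3 held a GAS (Irf1, Irf2 and Irf8). Of all 27025 genes with a window, 3.99% held the ISRE and 9.55% the GAS. No match was found in the windows of Irf3, Irf5, Irf7 and Irf9, which says only that these letters are not in those windows. The upstream 250 bases of the windows with a match are shown 5′ to 3′ with the motif letters in capitals, because they include the family gene that was lower in the pleural cavity and a pair that was higher. They lie on the plus strand of GRCm38.p6, Irf1 at chr11:53769764-53770013, Irf2 at chr8:46739495-46739744 and Irf8 at chr8:120736108-120736357.
Irf1: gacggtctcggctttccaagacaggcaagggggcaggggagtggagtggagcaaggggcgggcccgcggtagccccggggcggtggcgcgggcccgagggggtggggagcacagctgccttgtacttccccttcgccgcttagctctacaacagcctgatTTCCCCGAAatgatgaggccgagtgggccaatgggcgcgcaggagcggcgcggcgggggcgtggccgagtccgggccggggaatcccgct
Irf2: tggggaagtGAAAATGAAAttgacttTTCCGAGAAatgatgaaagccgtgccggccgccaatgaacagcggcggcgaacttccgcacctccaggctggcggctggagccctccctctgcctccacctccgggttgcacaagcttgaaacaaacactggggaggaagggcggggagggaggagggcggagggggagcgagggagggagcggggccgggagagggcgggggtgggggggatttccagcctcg
Irf8: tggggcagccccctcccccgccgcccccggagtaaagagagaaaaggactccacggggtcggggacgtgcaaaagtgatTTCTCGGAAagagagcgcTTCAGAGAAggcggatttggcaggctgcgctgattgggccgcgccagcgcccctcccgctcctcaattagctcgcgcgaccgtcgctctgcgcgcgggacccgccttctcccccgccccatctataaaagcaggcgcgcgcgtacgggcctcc

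In Irf1 the GAS match begins 90 bases upstream of the annotated start. Irf2 carries the ISRE 241 bases and a GAS 224 bases upstream, and they do not overlap. Irf8 carries a pair of GAS matches, at 171 and 153 bases upstream. The GAS is thus present in genes of opposite direction.

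**Figure D1:**
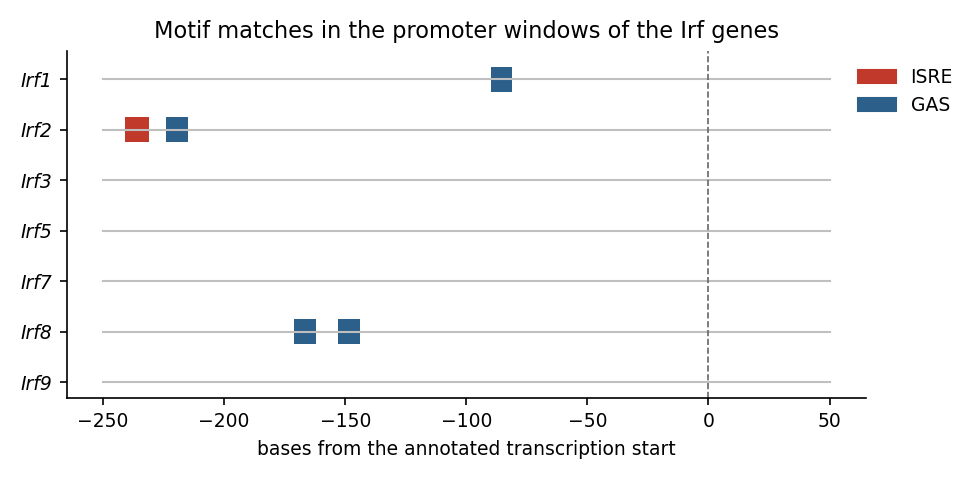
Each line is the promoter window of an Irf gene from 250 bases before to 50 bases after the annotated start (x axis, bases, dashed line at the start), with ISRE matches in red and GAS matches in blue. For genes with 2 windows (Irf1, Irf8 and Irf9) all matches fall in 1 of them or in none. Matches appear in Irf1, Irf2 and Irf8, and the remaining 4 lines are empty.

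Of the 7 family genes, 6 were higher in pleural cavity eosinophils and Irf8 alone was lower, as were 2468 and 3339 of all listed genes. The higher genes with the smallest ratios were Irf3 and Irf7, whose directions rest most on the scaling. The scaled log2 ratios of pleural cavity over bone marrow ran from 1.28 for Irf5 to -2.31 for Irf8, with a median of 1.05, and the median over all listed genes was -1.02. Past a log2 ratio of 1 lay 4 family genes (Irf1, Irf2, Irf5 and Irf9), a level that 16.0% of the 5807 listed genes reached. Below a log2 ratio of -1 lay Irf8, as did 50.5% of the listed genes. Most listed genes with low counts were lower in the pleural cavity, so genes of higher depth are given as a further background. Of the 2618 genes that reached 1000 mean reads in a tissue, 67.4% were higher in the pleural cavity, with a median log2 ratio of 0.47. The 6 higher family genes all belong to that set, and Irf8, with at most 464 mean reads, does not. Irf2 and Irf7, with 815.5 and 890 mean reads in the marrow cells, entered it through their pleural reads alone. The set was taken on unscaled reads of either tissue, and the pleural sum is the larger. It therefore leans towards genes higher in the pleural cells and is no neutral background. With so few genes and a majority of that set higher, no direction particular to the family was read from the count.

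**Figure D2:**
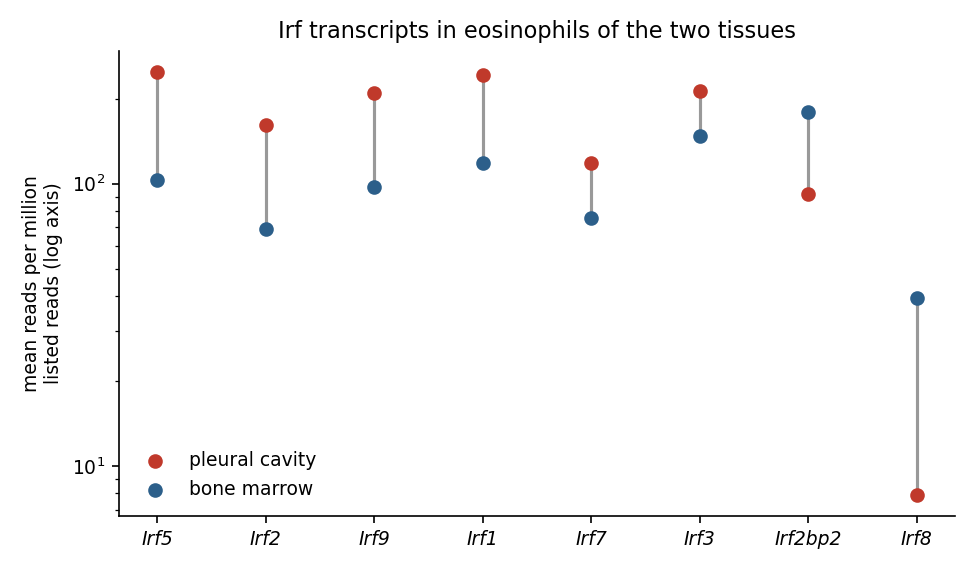
Mean reads per 1000000 listed reads (log y axis) of the 8 Irf genes in pleural cavity (red) and bone marrow (blue) eosinophils, each point the authors' mean over the libraries of a tissue, joined by a grey line and ordered by ratio. Values in the pleural cavity lie above those of the bone marrow for 6 genes and below them for Irf2bp2 and Irf8.

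Irf3 and Irf7, which carry the sensing of nucleic acids to interferon genes, differed least among the higher genes. Irf3 (ENSMUSG00000003184), the factor most cells hold ready before infection, is found in GRCm38 on the plus strand of chromosome 7, between 44997648 and 45002848. It had 3404 mean reads in the pleural cells and 1744.5 in the marrow cells, a 1.44-fold difference after scaling (log2 ratio 0.53). Irf7 (ENSMUSG00000025498), which interferon itself induces and which amplifies the response, lies on chromosome 7 from 141262706 to 141266481 on the minus strand. It had 1877 and 890 mean reads, a 1.56-fold difference (log2 ratio 0.64). Of the genes that reached 1000 mean reads in a tissue, 54.4% had a ratio below that of Irf3 and 63.3% below that of Irf7. This places Irf3 near the middle of that set, which Irf7 entered through its pleural reads alone.

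Irf5 (ENSMUSG00000029771), the factor below MyD88 that drives inflammatory cytokines, showed the largest ratio of the family. It lies on chromosome 6 from 29526625 to 29541871 on the plus strand and had 3971.33 mean reads in the pleural cells and 1207.57 in the marrow cells, a 2.43-fold difference (log2 ratio 1.28). Its means were fractional, as happens when the read estimator divides reads between similar sequences, which adds an uncertainty of unknown size. No other family gene had fractional means. The ratio of Irf5 exceeded that of Irf3 by 0.75 on the log2 scale, a difference that no scaling can change.

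Irf9 (ENSMUSG00000002325), the DNA-binding subunit of ISGF3, had 3349.5 mean reads in the pleural cells and 1142 in the marrow cells, 2.16-fold higher after scaling (log2 ratio 1.11). It lies on chromosome 14 from 55603571 to 55610030 on the plus strand. Its ratio was above that of its ISGF3 partner Stat2, which had 1418.87 and 659.84 mean reads with fractional means (log2 ratio 0.67).

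The pair with opposed roles at shared target sites was higher on both sides. Irf1 (ENSMUSG00000018899), an activator induced by interferon gamma, had 3873 mean reads in the pleural cells and 1382.5 in the marrow cells, 2.07-fold higher (log2 ratio 1.05). It lies on chromosome 11 from 53770014 to 53778374 on the plus strand. Irf2 (ENSMUSG00000031627), its antagonist at many promoters, had 2589 and 815.5 mean reads, 2.34-fold higher (log2 ratio 1.23), and lies on chromosome 8 from 46739732 to 46847458 on the plus strand. Irf2bp2 (ENSMUSG00000051495), the corepressor that works with IRF2, went the other way, with 1471 and 2108 mean reads, 1.94-fold lower (log2 ratio -0.96). It lies on chromosome 8 from 126588296 to 126593986 on the minus strand. Its relatives, Irf2bp1 and Irf2bpl, were not listed.

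Irf8 (ENSMUSG00000041515) stood apart from the other family genes in level and in direction, although most listed genes with low counts were lower too. It lies on chromosome 8 from 120736358 to 120756694 on the plus strand and had 126.5 mean reads in the pleural cells and 464 in the marrow cells, 4.97-fold lower (log2 ratio -2.31). It had the fewest reads of the family in each tissue. Several marker lists moved in the same direction as Irf8, as did 3339 of the 5807 listed genes. The eosinophil markers given above were among them, with 7 of 9 lower, so the shared direction is not particular to other cell types. Neutrophil and granulocyte precursor markers were listed for 15 of 16 genes, of which 14 were lower, and their reads made up 0.448% of listed reads in the pleural cells and 11.8% in the marrow cells, with Ngp (546.5 and 263228.5 mean reads) and S100a8 (455 and 229057.5) the most abundant over both tissues together. In the pleural cells most of these reads came from Mmp9 (34715 and 14050.5), the marker that was higher, and Retnlg (33927 and 147022). Basophil and mast cell markers were lower for 7 of 7 genes, with 406 and 13065 summed reads, led by Prss34 (4.5 and 3810.5) and Cpa3 (17.5 and 2802). Of 10 dendritic cell markers 2 were listed, Siglech at 0.5 and 34 and Tcf4 at 163.5 and 387.32 mean reads, and both were lower. Monocyte and macrophage markers were mixed, with 7 of 14 listed and 4 of them higher. Lyz2 had 50392.5 and 87527.2 mean reads and Csf1r 20627.5 and 3973.5. The part of these cells in the level of Irf8, or of any other Irf gene, was not tested.

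Among B and plasma cell markers 2 of 7 were listed, Ms4a1 with 366 and 107 mean reads and Jchain with 39 and 447.5. Of 9 T and NK cell markers 3 were listed and lower, led by Nkg7 (112 and 10432 mean reads) and Cd3d (32 and 123). Erythroid markers reached 6.5 and 219 summed reads over 3 of 8 genes, with Klf1 at 1.5 and 163 and Epor at 5 and 44. Of 5 epithelial markers 2 were listed. Krt18 had 1918 and 518 mean reads and Cdh1 had 5 and 114.5. Their part in the Irf values was likewise not tested.

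How far the ratios rest on the scaling was asked with 5 scalings of the same means. The direction of all 8 Irf genes was the same under each of these 5. Irf3 ranged from 0.08 to 0.96 and Irf7 from 0.19 to 1.08 on the log2 scale, so their size depends on the scaling, and a scaling that takes more than 0.96 from the unscaled log2 ratio would turn the direction of Irf3. Between -0.03 and 0.62 on the unscaled log2 scale lay no listed gene at all, with 2468 genes above this empty stretch and 3339 below it. The offsets of 4 of the 5 scalings fall within it, and the largest offset, 0.88, from the median ratio of genes that reached 1000 mean reads in both tissues (the median ratio of well-read genes from here on), lies above it. Taken from the middle of the stretch, a choice made after seeing the data, Irf3 was at 0.67, Irf7 at 0.78 and Irf8 at -2.17. The stretch is narrower than the fold threshold given in the study's methods would leave, so these means do not reproduce that threshold under any scaling. The authors' own scaling was not examined here, so the directions hold for the scalings named and no further. Irf9 ranged from 0.67 to 1.55, Irf1 from 0.60 to 1.49, Irf2 from 0.78 to 1.67 and Irf5 from 0.83 to 1.72. Irf2bp2 ranged from -1.40 to -0.52 and Irf8 from -2.76 to -1.87. Under the median ratio of well-read genes, 0 of the 7 family genes passed a log2 ratio of 1. The order of the genes and the gap of 3.59 between Irf5 and Irf8 are untouched by any scaling.

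**Figure D3:**
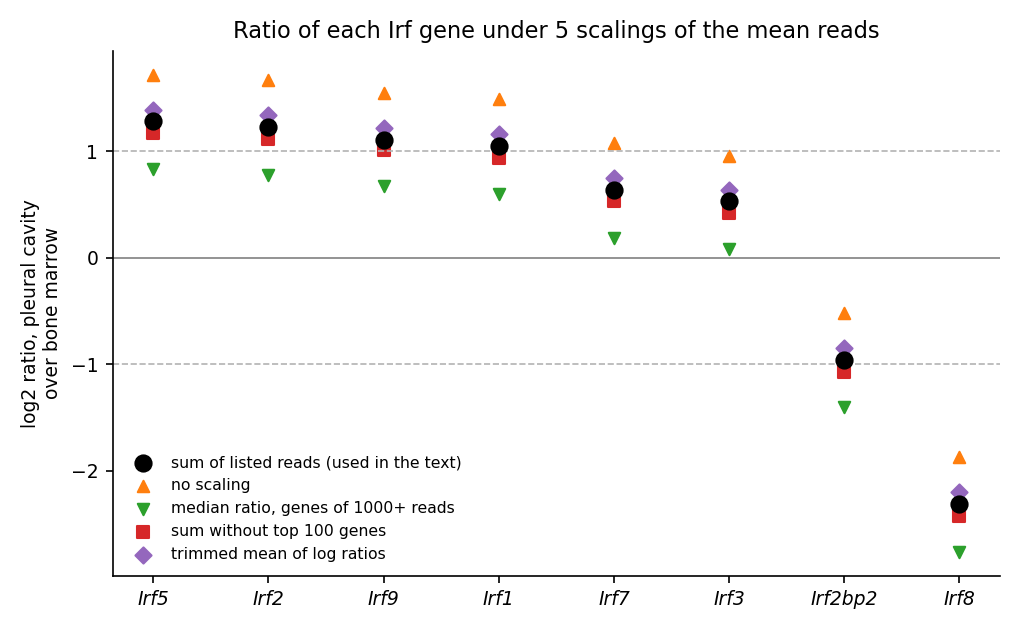
Log2 ratio of pleural cavity over bone marrow mean reads (y axis) for each Irf gene under 5 scalings, with black circles for the scaling used in the text and dashed lines at 1 and -1. Every point of Irf5, Irf2, Irf9, Irf1, Irf7 and Irf3 lies above 0, the lowest being Irf3 at 0.08, and every point of Irf2bp2 and Irf8 lies below 0.

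Levels were compared between genes per kilobase of the longest annotated transcript and per 1000000 listed reads. In pleural cavity eosinophils the order was Irf1 (114), Irf5 (111), Irf3 (105), Irf9 (54.3), Irf2 (40.9), Irf7 (36.3) and Irf8 (2.29). In bone marrow eosinophils it was Irf3 (73.0), Irf1 (55.0), Irf5 (45.8), Irf9 (25.1), Irf7 (23.4), Irf2 (17.5) and Irf8 (11.4). Without values per library it cannot be said which neighbours in these orders differ beyond their spread. As a share of the summed family level, which needs no scaling between tissues, Irf3 made up 29.1% in bone marrow and 22.7% in pleural cavity eosinophils. The share of Irf8 was 4.53% in bone marrow and 0.493% in the pleural cavity, and that of Irf5 was 18.2% and 24.0%.

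The longest transcripts of Irf2 and Irf7 are single-exon models of 3965 and 3240 bases. Their longest protein-coding transcripts have 9 and 10 exons with 2497 and 2237 bases. For Irf8 and Irf9 the longest models have 2 and 3 exons with 3469 and 3869 bases. Their longest protein-coding transcripts have 9 and 10 exons with 2847 and 2959 bases. The levels of all these genes are understated if the protein-coding form prevails. With the longest protein-coding transcript of each gene, a choice made after seeing the data, Irf9 (71.0), Irf2 (65.0) and Irf7 (52.6) took the places 4 to 6 in the pleural cavity, while in bone marrow Irf7 (33.8) came before Irf9 (32.8). In the pleural cells Irf2 came before Irf9 with mean transcript length (137 and 107) and with coding length (155 and 151), where Irf3 (170) also came before Irf5 (167). With coding length, Irf1 (119) and Irf3 (118) were level in bone marrow. Irf8 had the lowest level in each tissue under all 4 lengths.

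**Figure D4:**
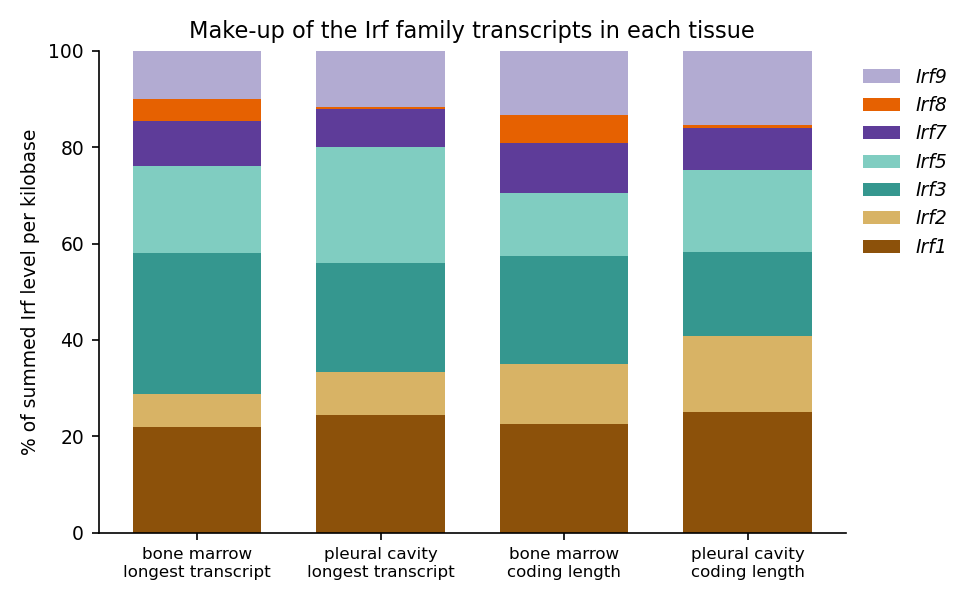
Stacked bars give the percentage of the summed Irf level per kilobase (y axis) taken by each of 7 Irf genes in bone marrow and pleural cavity eosinophils, for the longest transcript (left pair) and the coding length (right pair). With the longest transcript, Irf3 takes 29.1% in bone marrow and 22.7% in the pleural cavity, and the Irf8 segment shrinks from 4.53% to 0.493%.

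Some loci overlap other genes, and whether the counting used strand is not given in the sources used here. Irf3 overlaps Bcl2l12, an antisense neighbour, by 1065 bases, Irf5 overlaps the antisense gene Tnpo3 by 1045 bases, and Irf7 overlaps Phrf1 by 45 bases. None of these 3 neighbours was listed, nor were Scaf1, 99 bases from Irf3, and Cdhr5, 2601 bases from Irf7. Irf9 overlaps Rnf31, which encodes a linear ubiquitin ligase and lies on the same strand, by 123 bases. Rnf31 was listed with 1666.5 mean reads in the pleural cells and 775 in the marrow cells (log2 ratio 0.67). Rec8, 8006 bases from Irf9, had 30.5 and 104 mean reads (log2 ratio -2.21). The part of neighbouring transcripts in the Irf9 value was not tested. The annotated gene Gm20388 spans the whole of Irf8 on the same strand, and the 907 bases of Gm17334 lie within Irf1 on the other strand. Within Irf2 lie Gm45479, Gm31172 and Gm45481 on the other strand, and Gm26759 overlaps Irf2bp2 by 2693 bases. None of these was listed.

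Genes that lead to IRF3 and IRF7 were described from a list of 21 sensors and adaptors, 13 of which were listed, 10 higher and 3 lower, with a median log2 ratio of 0.59. This is close to the background of genes that reached 1000 mean reads in a tissue, 67.4% of which were higher with a median of 0.47, while 42.5% of all listed genes were higher. The lower ones were nucleic acid sensors. Tlr7, the endosomal receptor for single-stranded RNA, had 306.87 mean reads in the pleural cells and 2137.76 in the marrow cells with fractional means (log2 ratio -3.24). Tlr8, its close relative, had 30 and 99.5 (log2 ratio -2.17), and Cgas, the sensor of cytosolic DNA, had 134.53 and 298.55 with fractional means (log2 ratio -1.59).

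Other cytosolic sensors lay on the opposite side. Zbp1, a sensor of Z-form nucleic acids, had 1162 and 241.5 mean reads (log2 ratio 1.83), Dhx58 had a log2 ratio of 1.07 and Ifih1, which detects long double-stranded RNA, 0.59. Of the adaptors, Ticam2, which links TLR4 to IRF3 activation, had 933.5 and 227.5 mean reads (log2 ratio 1.60), and Ticam1, Traf3 and Myd88 had log2 ratios of 0.80, 0.78 and 0.63. Ddx58, Irak4 and Ddx41 had log2 ratios of 0.36, 0.39 and 0.35, and the direction of these 3 turned under the median ratio of well-read genes.

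Of 8 kinases and cofactors that act on IRF3 and IRF7, 6 were listed, 3 higher and 3 lower. The share higher was 42.5% over all listed genes and 67.4% over those that reached 1000 mean reads in a tissue. Ikbke, which encodes the kinase IKKε, had 323 mean reads in the pleural cells and 972.5 in the marrow cells (log2 ratio -2.03). Its scaffold genes Tbkbp1 (75.5 and 232.5 mean reads, log2 ratio -2.06) and Tank (1690.5 and 1965, log2 ratio -0.66) were also lower, whereas Azi2, a further scaffold, was at 0.53 with fractional means. The coactivator genes Ep300 and Crebbp were at 0.51 and 0.32, the latter changing sign under the median ratio of well-read genes. Tbk1 and Chuk were not listed. None of 21 interferon genes was listed, so the table gives no direction for the products of IRF3 and IRF7.

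Between the interferon receptors and ISGF3, 6 of 10 genes were listed and 5 were higher, or 4 of 5 without Irf9, which is near the 67.4% given above. The receptor subunits differed, with Ifnar1 at a log2 ratio of 0.68 with fractional means and Ifnar2 at -0.87 (1295 mean reads in the pleural cells and 1748.5 in the marrow cells). Jak1, the kinase at the receptor, was at 0.46 with fractional means. Irf9 was the only gene of this list past a log2 ratio of 1, beside the 16.0% of all listed genes that reached it.

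Of 15 negative regulators of the pathway, 12 were listed and 11 were higher, beside 42.5% of all listed genes and 67.4% of those that reached 1000 mean reads in a tissue. The largest ratio was that of Otub2, a deubiquitinase gene, with 1788.5 mean reads in the pleural cells and 122.5 in the marrow cells (log2 ratio 3.43). Usp18, which holds the type I interferon receptor in check, had 1581 and 329.5 (log2 ratio 1.82), and the cytokine signalling suppressors Socs1 and Socs3 had log2 ratios of 1.48 and 1.11. Otud5 was at 0.52. Of the 12, 6 turned slightly negative under the median ratio of well-read genes, which left 5 higher. Among these 6, Tnfaip3, Cyld, Rbck1, Pias1 and Otub1 were between 0.32 and 0.43. Nlrx1, a mitochondrial protein gene, was the lower one, at -1.26.

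**Figure D5:**
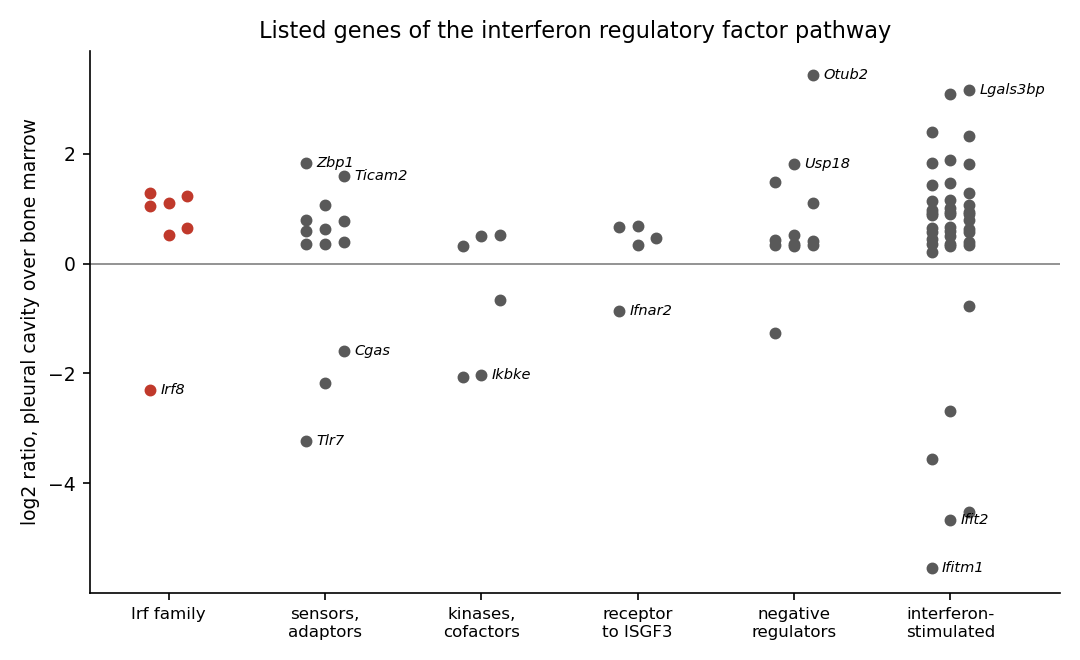
Each point is a listed gene, plotted by its log2 ratio of pleural cavity over bone marrow mean reads (y axis) within the Irf family (red) and 5 lists of pathway genes (grey, Irf genes left out, a gene on several lists drawn in each), with a line at 0. Family genes other than Irf8 lie between 0.53 and 1.28, while the interferon-stimulated genes spread from -5.55 for Ifitm1 to 3.17 for Lgals3bp. Ifit3b, read at the floor in the pleural cavity, is not drawn.

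Possible target genes were described from a list of 80 interferon-stimulated genes, of which 46 were listed, 39 higher and 7 lower. Of the 46, 7 changed direction under the median ratio of well-read genes. Of all listed genes 42.5% were higher, and 67.4% of those that reached 1000 mean reads in a tissue. Without the Irf genes on it, 36 of 43 were higher, with a median log2 ratio of 0.79. This list was written with earlier results of these data known, so its direction is no separate evidence on the Irf genes. Lgals3bp, which encodes a secreted galectin-binding protein, had 13484 mean reads in the pleural cells and 1103 in the marrow cells (log2 ratio 3.17). Gbp2, a guanylate-binding protein gene, had 1981 and 171.5 (log2 ratio 3.09), and Ifi27l2a 3921.5 and 547.5 (log2 ratio 2.40). Phf11b was at 2.32 and Trim34a at 1.46, both with fractional means, and Oasl2, related to the antiviral oligoadenylate synthetases, was at 1.88.

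The lower genes belonged to the Ifitm and Ifit families. Of the Ifitm genes, whose products block virus entry, Ifitm1 had 42 mean reads in the pleural cells and 1453 in the marrow cells (log2 ratio -5.55), Ifitm6 had 375 and 6407.5 (log2 ratio -4.53) and Ifitm2 3760.5 and 4752.5 (log2 ratio -0.78), whereas Ifitm3 had 5080.5 and 2514 (log2 ratio 0.58). Of the Ifit genes, which encode RNA-binding antiviral proteins, Ifit2 had 15.5 and 292.5 mean reads (log2 ratio -4.68), and Ifit3 and Ifit1bl2, both with fractional means, had log2 ratios of -2.69 and -3.56. Ifit3b had 2.1 and 107.375 fractional mean reads and was at least 48.5-fold lower when 3 mean reads in a tissue are taken as the floor. At the small end of the higher genes, Sp100 and Adar had log2 ratios of 0.21 and 0.32, and both turned negative under the median ratio of well-read genes. Beside the higher Irf3, Irf7 and Irf9 means, 36 of the 43 interferon-stimulated genes other than Irf genes were thus higher and 7 were lower. Whether these factors act on the listed genes in these cells was not tested. The part of other cell types in their values was not tested either.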

How the data were processed

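Total RNA of sorted eosinophils was made into low-input libraries and sequenced. According to the study's methods and the submitters' processing notes, the authors aligned the reads to GRCm38 with HISAT2 2.1.0, mapped them to genes with Bowtie2 2.2.5, estimated reads per gene with RSEM 1.2.8 and ran DESeq2 between the tissues. The deposited values used here are expected counts, given by the authors as 1 mean per tissue over its libraries, with no scaling for depth stated, so the depth of each library is unknown. The table also holds the authors' log2 fold changes, p-values and q-values, which were not used. Samples were grouped by their titles. 

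Ratios were computed after scaling to the sum of listed reads, with no test, since only means were used. Symbols were matched to GENCODE M21 (GRCm38), an earlier release than the authors'. Genes with a mean of at most 3 reads in a tissue were given as bounds. The rule for named genes took Irf3, Irf7 and Irf9, every listed gene of the pathway lists, the 8 highest and 8 lowest interferon-stimulated genes and any at the floor, neighbours within 10 kb and the 2 most abundant markers of each cell type. It held the other family genes by name alone, and their values are given because the symbol rule found them in the table. Siglecf, Ccr3, Mmp9, Retnlg and Ifitm3 were named after their values were seen. Some genes of the lists are counted but not reported here by name. Members and lists were chosen with earlier results of these data known. The scaling step was tested on simulated data. Python 3.11.15, numpy 2.4.6, pandas 2.3.3 and matplotlib 3.10.9 were used.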

Additional observations from a re-analysis of the deposited data

How the results depend on the processing

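The values rest on 2 group means per gene, so neither leaving out a replicate nor any other measure of spread could be run. No paired analysis was possible because the table's mean columns carry no replicate numbers. The median log2 ratio of the Irf family was 1.49 with no scaling, 0.60 with the median ratio of genes that reached 1000 mean reads in each tissue (well-read genes), 0.94 without the 100 genes with the most reads and 1.16 with a trimmed mean of log ratios, and 1.19 from the middle of the empty stretch of ratios, which was added after seeing the data. Under the median ratio of well-read genes, as with a log2 threshold of 2, the family genes past the threshold numbered 0, and 5 negative regulators were higher, with a median of -0.02. The kinases and cofactors had a median of 0.27 with no scaling. Listed genes past a log2 ratio of 1 numbered 1770 higher and 2510 lower with no scaling and 525 and 3326 under the median ratio of well-read genes, beside 930 and 2935 as reported. With at least 100 mean reads 1725 were lower. Thresholds of 0.5 and 2 gave 1934 and 308 higher genes. Leaving out genes with fractional means left 1 higher gene between receptor and ISGF3, because 4 of the others are fractional. The share of Irf8 in the family level was 0.636% in the pleural cells and 5.87% in the marrow cells with coding length, 4.54% in the marrow cells with mean transcript length, and 0.535% and 4.91% with the longest protein-coding transcript. A single GAAA half-site was found for 6 family genes, as for 90.5% of all genes with a window, and the element with 1 or 3 bases between half-sites for 0, beside 3.70% and 3.17% of all genes. Adding 1 read to each mean changed no direction of an Irf gene.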

Other observations

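Promoter windows of the interferon-stimulated genes were searched for the same motifs as those of the Irf genes. Windows were found for 25 of the 36 higher and for all 7 lower listed genes, the Irf genes left out. The ISRE was present in 13 of the 25 higher genes (52.0%) and in 4 of the 7 lower genes (57.1%), while 3.99% of all genes with a window held it. The GAS was present in 8 of the 25 higher and 2 of the 7 lower genes, and in 9.55% of all genes with a window. These are counts of letters in promoter windows, and no test was run on them.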
